A study of Mus musculus with 12 samples.

Results

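The genes described here encode the hematopoietic transcription factor complex built around TAL1, LMO2 and LDB1. They are 9 of the 17210 genes in the count table, namely Tal1, Lyl1, Lmo2, Lmo4, Ldb1, Tcf3, Tcf12, Cbfa2t3 and Cbfa2t2, taken as the rows that carry these symbols, and the rule used no measured value. All 9 passed the low-count filter, which left 11177 genes for testing.

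In blood cells TAL1, a basic helix-loop-helix protein, pairs with an E protein and binds E-box DNA, and its close relative LYL1 can take the same place. LMO2 is a LIM-domain protein without DNA binding of its own that bridges the helix-loop-helix pair to GATA1 or GATA2, and LDB1 binds LMO2 and self-associates, which brings distant enhancers to their promoters. The corepressor ETO2, encoded by Cbfa2t3, joins the same complex, and in erythroid precursors the composition of the complex changes as cells mature.

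RNA was sequenced from G1E-ER4 cells, a mouse erythroid line that lacks its own GATA1 and carries in its place a stable GATA1 fusion with an estrogen receptor ligand-binding domain, which β-estradiol (EST) activates. All 4 groups carried this fusion and all were transduced with a retrovirus for 24 h, either an empty vector or FLAG-tagged active SREBP2 (residues 1 to 468), the transcription factor that drives cholesterol synthesis genes. Each virus was combined with no EST or with EST for 6 h, which gave 4 groups of 3 libraries, called Vector and SREBP2 without EST and Vector+EST and SREBP2+EST with it. The labels give the EST dose as 500 nM in the treatment protocol and as 200 nM in the series description. The strain on the labels is C57BL/6J. The line is a single one in which GATA1 is supplied by a transgene, and while the study describes its results as coming from independent experiments, the labels do not tie single libraries to separate cultures, so p-values measure the spread between these libraries, which may be technical. Libraries are named below by their group and by the number in the table's header, which runs 1, 4 and 5 in Vector, 1, 3 and 5 in SREBP2 and in Vector+EST, and 1, 2 and 5 in SREBP2+EST.

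The libraries held 18700959 to 19152281 estimated counts each, so that 3 counts, the detection floor used here, stood at 0.153 to 0.163 CPM, the usual library-scaled unit of expression (here with TMM factors, the trimmed mean of M values). The labels name the cell type as embryonic stem cells. The 4 embryonic stem markers in the table summed to 0.0530 to 0.650 CPM, against 2014 to 2376 CPM for 7 erythroid markers. Srebf2, the mouse gene that encodes SREBP2, was read beside the virus labels. It had 355 to 370.4 CPM in Vector, 432 to 456 CPM in Vector+EST, 797 to 837 CPM in SREBP2 and 801 to 814 CPM in SREBP2+EST. The counts do not separate the introduced from the endogenous transcript. The study measured the introduced transcript in this line as human SREBP2, and how much of it is counted under the mouse gene was not tested. The first principal component, with 65.3% of the variance, separated the 3 Vector libraries from the other 9.

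Some libraries stood apart from their group. SREBP2 library 1 lay nearer to SREBP2+EST libraries 2 and 5 than to SREBP2 libraries 3 and 5 for 61.9% of the genes tested, and for 8 of the 9 complex genes, all but Tcf12. SREBP2+EST library 1 lay nearer to SREBP2 libraries 3 and 5 than to its own group for 62.7% of the genes, and for 6 of the 9 complex genes. Some genes ran the way the labels say, with Col1a1 at 0.0530 CPM in SREBP2 library 1 and 6.5 CPM in SREBP2+EST library 1, and Igfbp7 at 0.0530 and 2.76 CPM. An exchange of these 2 libraries was not tested and would alter every value that involves either group. Their labels were kept, and the comparisons whose calls for the 9 genes changed without both are given both ways. Because both were singled out by their own values, the values without them are a description and do not test the groups afresh. Transcripts of fibroblast marker genes were uneven as well. Their sum was 36.3 CPM in Vector+EST library 5 and 18.6 to 35.1 CPM in SREBP2+EST, against 4.03 to 5.42 CPM in the SREBP2 group and the other Vector+EST libraries and 19.2 to 19.9 CPM in Vector, and Col1a1 reached 6.5 to 13.8 CPM in those 4 EST libraries while it stayed under the floor elsewhere. The members differed, since the Vector sum was almost all Col1a2, at 18.9 to 19.9 CPM there and 3.87 to 7.97 CPM elsewhere, while Fn1, Mmp2 and Igfbp7 were raised with Col1a1 in the 4 EST libraries.

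EST given to Vector cells changed every gene of the complex. Among relatives, Tal1 and Lyl1 moved together and so did Lmo2 and Lmo4, while Tcf3 and Tcf12 moved apart, as did Cbfa2t3 and Cbfa2t2. Tal1, Lyl1, Tcf3, Ldb1 and Cbfa2t3 fell, Lyl1 by 20.1-fold, while Lmo2, Lmo4, Tcf12 and Cbfa2t2 rose, by at most 2.28-fold. By edgeR's quasi-likelihood test 4 of 9 were higher, where 35.2% of all genes tested were higher, and 5 of 9 were lower, where 35.5% were lower. The libraries of the 2 groups overlapped for none of the 9, and all 3 EST libraries lay above all 3 Vector libraries for 37.8% of all genes and below them for 37.9%. The median log2 fold change was -0.46 over the 9 genes and 0.01 over all genes tested. In bulk RNA, fewer cells of a type and less RNA per cell cannot be told apart.

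Lyl1 (Entrez 17095, GRCm38.p6 chr8:84701423-84704716, plus strand) showed the greatest difference. Its level was 349.6, 333 and 333 CPM in the Vector libraries, 16.4, 29.8 and 30.3 CPM in SREBP2, 18.9, 14.0 and 17.6 CPM in Vector+EST, and 23.7, 19.5 and 19.8 CPM in SREBP2+EST. Every Vector library was far above every other library. In order of their means the groups ran Vector, SREBP2, SREBP2+EST and Vector+EST, and the neighbours among the last 3 did not differ past the threshold. EST in Vector cells lowered Lyl1 by a log2 fold change of -4.33 ± 0.15 (SE, n = 3 against 3, edgeR adjusted p = 5.47e-13), which ranked 18 from the lowest among 11177 genes.

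Tal1 (Entrez 21349, chr4:115056426-115071755, plus strand), the helix-loop-helix core of the complex, stood at 476, 477 and 485 CPM in Vector, 83.3, 112 and 113 CPM in SREBP2, 97.7, 95.5 and 106 CPM in Vector+EST, and 104, 82.0 and 91.1 CPM in SREBP2+EST. The Vector libraries again lay far above all others, and the remaining 3 groups covered one range. The EST difference in Vector cells was -2.26 ± 0.09 (log2 fold change ± SE, edgeR adjusted p = 4.09e-12), a 4.80-fold lower level.

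The E proteins, the partners with which TAL1 binds E-boxes, moved apart. Tcf3 (Entrez 21423, chr10:80409541-80433976, minus strand), which encodes E12 and E47, had 417, 389 and 399 CPM in Vector, 192, 203 and 208 CPM in SREBP2, 223, 217 and 227 CPM in Vector+EST, and 209, 192 and 196 CPM in SREBP2+EST. It fell with EST in Vector cells by 0.85 ± 0.04 on the log2 scale (edgeR adjusted p = 4.25e-11). Tcf12 (Entrez 21406, chr9:71844252-72111893, minus strand), which encodes HEB, had 132, 133 and 132 CPM in Vector, 145, 143 and 136 CPM in SREBP2, 154, 150.3 and 137 CPM in Vector+EST, and 141, 140.0 and 134 CPM in SREBP2+EST. Its Vector libraries were the lowest of all 12 by a narrow margin. The EST difference of 0.15 ± 0.04 (edgeR adjusted p = 0.00587) was lost without Vector library 4 (adjusted p = 0.0618) or Vector library 5 (adjusted p = 0.0798).

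Among the bridging proteins the adaptor LDB1 and its LIM-only partners went opposite ways. Ldb1 (Entrez 16825, chr19:46031525-46048145, minus strand) had 401, 380.3 and 376 CPM in Vector, 219, 262 and 261 CPM in SREBP2, 273, 267 and 301 CPM in Vector+EST, and 245, 231 and 249 CPM in SREBP2+EST, so that all 9 other libraries lay below the Vector libraries. EST in Vector cells lowered it by 0.46 ± 0.06 (log2, edgeR adjusted p = 5.48e-06). Lmo2 (Entrez 16909, chr2:103957903-103981878, plus strand) had 261, 265 and 255 CPM in Vector, 299.9, 407 and 412 CPM in SREBP2, 331, 325 and 344 CPM in Vector+EST, and 389.7, 321 and 323 CPM in SREBP2+EST. Its Vector libraries were the lowest, and SREBP2 library 1 and SREBP2+EST library 1 each lay nearer to the other SREBP2 group. Its rise with EST was 0.36 ± 0.09 (log2, edgeR adjusted p = 0.0032). Lmo4 (Entrez 16911, chr3:144188530-144205255, minus strand), a LIM-only relative that also binds LDB1, had 24.9, 24.2 and 24.0 CPM in Vector, 41.3, 33.6 and 31.1 CPM in SREBP2, 54.7, 54.7 and 57.4 CPM in Vector+EST, and 33.4, 42.5 and 42.5 CPM in SREBP2+EST. No Lmo4 value of Vector or Vector+EST overlapped another group, and EST in Vector cells raised it by 1.19 ± 0.10 (log2, edgeR adjusted p = 1.43e-08).

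The corepressor genes split in the same manner. Cbfa2t3 (Entrez 12398, chr8:122625136-122699332, minus strand) had 355, 339 and 351 CPM in Vector, 81.5, 122 and 117 CPM in SREBP2, 72.4, 69.8 and 82.5 CPM in Vector+EST, and 115, 83.4 and 100.2 CPM in SREBP2+EST. The Vector libraries stood at 339 CPM or more and all others at 122 CPM or less, with an EST difference in Vector cells of -2.22 ± 0.12 (log2, edgeR adjusted p = 1.52e-10). Cbfa2t2 (Entrez 12396, chr2:154436098-154539356, plus strand), whose product MTGR1 is a relative of ETO2, had 33.8, 32.5 and 32.6 CPM in Vector, 39.5, 38.2 and 35.0 CPM in SREBP2, 40.3, 40.0 and 39.2 CPM in Vector+EST, and 40.6, 40.8 and 41.7 CPM in SREBP2+EST. Its Vector libraries were the lowest of the 12, and it rose with EST by 0.27 ± 0.05 (log2, edgeR adjusted p = 0.000187).

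**Figure D1:**
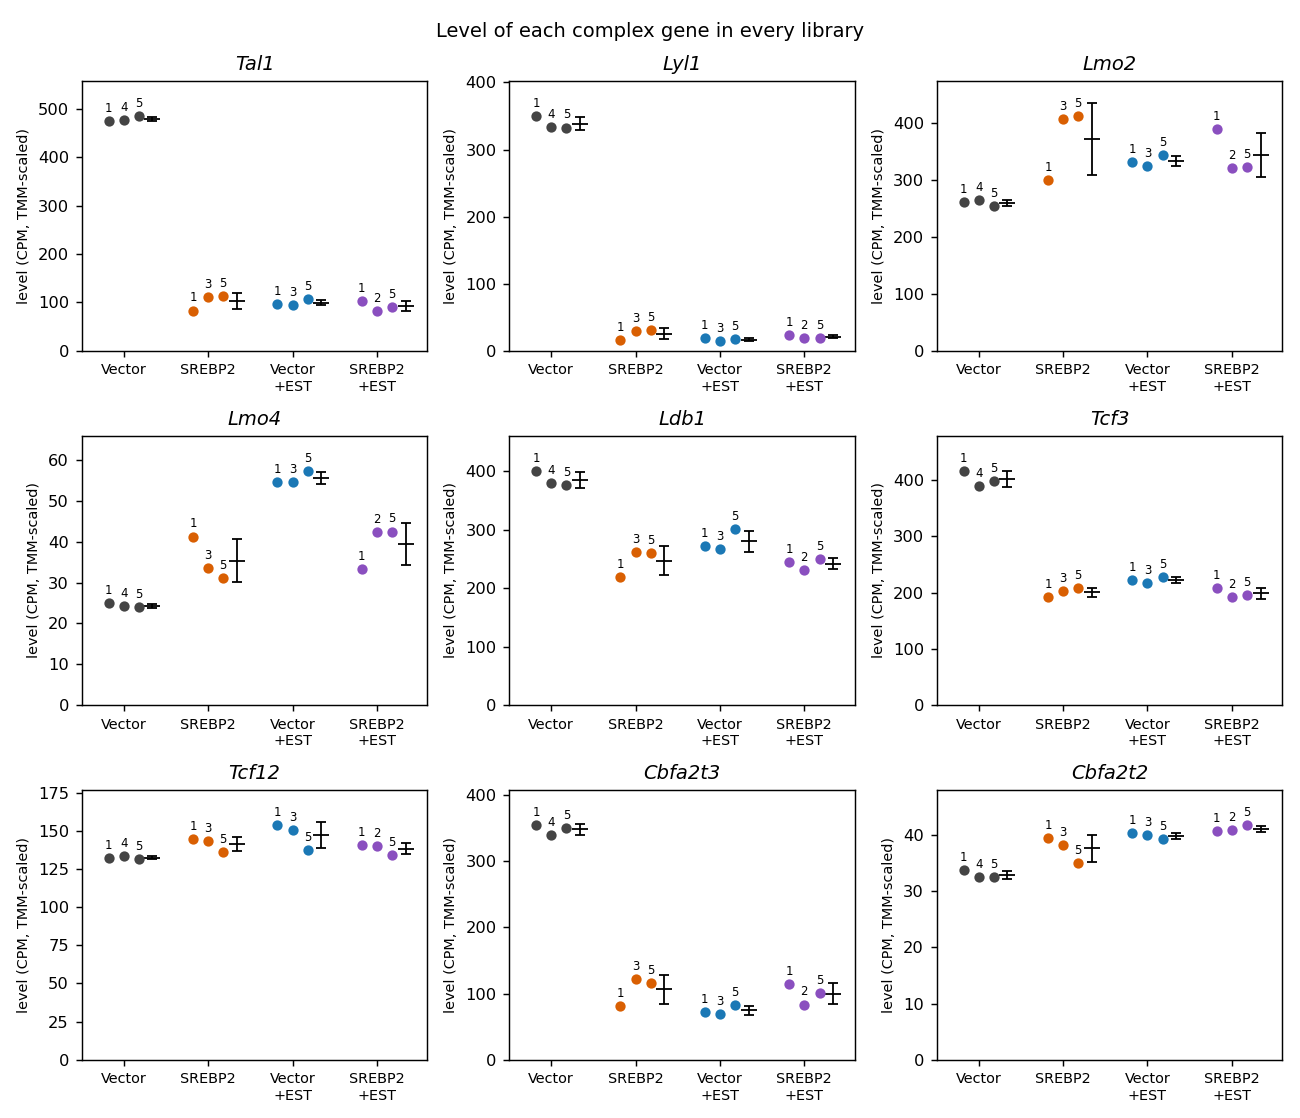
Level of each of the 9 genes in CPM, after TMM scaling, in every library, with 1 point per library labelled with its header number and bars for the group mean ± SD (n = 3). The 3 Vector libraries lie far above the other 9 for Tal1, Lyl1 and Cbfa2t3, above them for Tcf3 and Ldb1, and below them for Lmo2, Lmo4, Tcf12 and Cbfa2t2.

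Per kilobase of the median coding transcript of the annotation, the levels in Vector cells were 188 CPM per kb for Lyl1, 184 for Ldb1, 182 for Lmo2, 145 for Tal1, 142 for Tcf3, 115 for Cbfa2t3, 58.7 for Tcf12, 17.2 for Lmo4 and 7.92 CPM per kb for Cbfa2t2. Lyl1 and Lmo2 thus stood at like levels in Vector cells on this scale. After EST Lmo2 stood at 233 and Lyl1 at 9.34 CPM per kb, and Lmo2 was the highest of the 9 in each of the other 3 groups. The order depends on the transcript length used. With the longest transcript, Vector cells had 188 CPM per kb for Lyl1, 153 for Lmo2, 136 for Tcf3, 123 for Ldb1 and 114 for Tal1, and Lmo2 still led in the other 3 groups, at 196 to 219 CPM per kb.

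Active SREBP2 without EST was set against the same Vector libraries. Tal1, Lyl1, Tcf3, Ldb1 and Cbfa2t3 fell, Lmo2, Lmo4 and Cbfa2t2 rose, and Tcf12 did not pass the test. Thus 3 of 9 were higher, where 37.7% of all genes tested were, and 5 of 9 were lower, where 33.8% were. The median log2 fold change was -0.64 over the 9 genes and 0.03 over all genes tested. Because the SREBP2 and EST differences share the Vector libraries, the values stand side by side here and their likeness was not tested.

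Lyl1 was 13.3-fold lower with SREBP2 (log2 fold change -3.73 ± 0.14, edgeR adjusted p = 1.23e-12), Tal1 was 4.67-fold lower (log2 fold change -2.23 ± 0.09, edgeR adjusted p = 3.93e-12), and Cbfa2t3 was 3.26-fold lower (log2 fold change -1.71 ± 0.12, edgeR adjusted p = 2.5e-09). Tcf3 fell by 1.00 ± 0.04 and Ldb1 by 0.64 ± 0.06 on the log2 scale (edgeR adjusted p = 5.33e-12 and 1.17e-07). The rises were 0.52 ± 0.09 for Lmo2, 0.54 ± 0.10 for Lmo4 and 0.19 ± 0.05 for Cbfa2t2 (log2, edgeR adjusted p = 0.00013, 0.000156 and 0.00389). Tcf12 differed by 0.10 ± 0.04 with an adjusted p of 0.0639, although all 3 SREBP2 libraries lay above all 3 Vector libraries, as they did for 39.3% of the genes tested. The Cbfa2t2 rise was lost without Vector library 4 (adjusted p = 0.0556), without Vector library 5 (adjusted p = 0.052), with the header number as a block (0.17, adjusted p = 0.0517) and without library 1 of both SREBP2 groups (0.11, adjusted p = 0.0709), and Tcf12 passed without SREBP2 library 5 (adjusted p = 0.0337). Without both of those libraries the other 7 kept their calls, at -3.53 for Lyl1, -2.14 for Tal1, -1.59 for Cbfa2t3, -1.01 for Tcf3, -0.60 for Ldb1, 0.61 for Lmo2 and 0.37 for Lmo4.

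**Figure D2:**
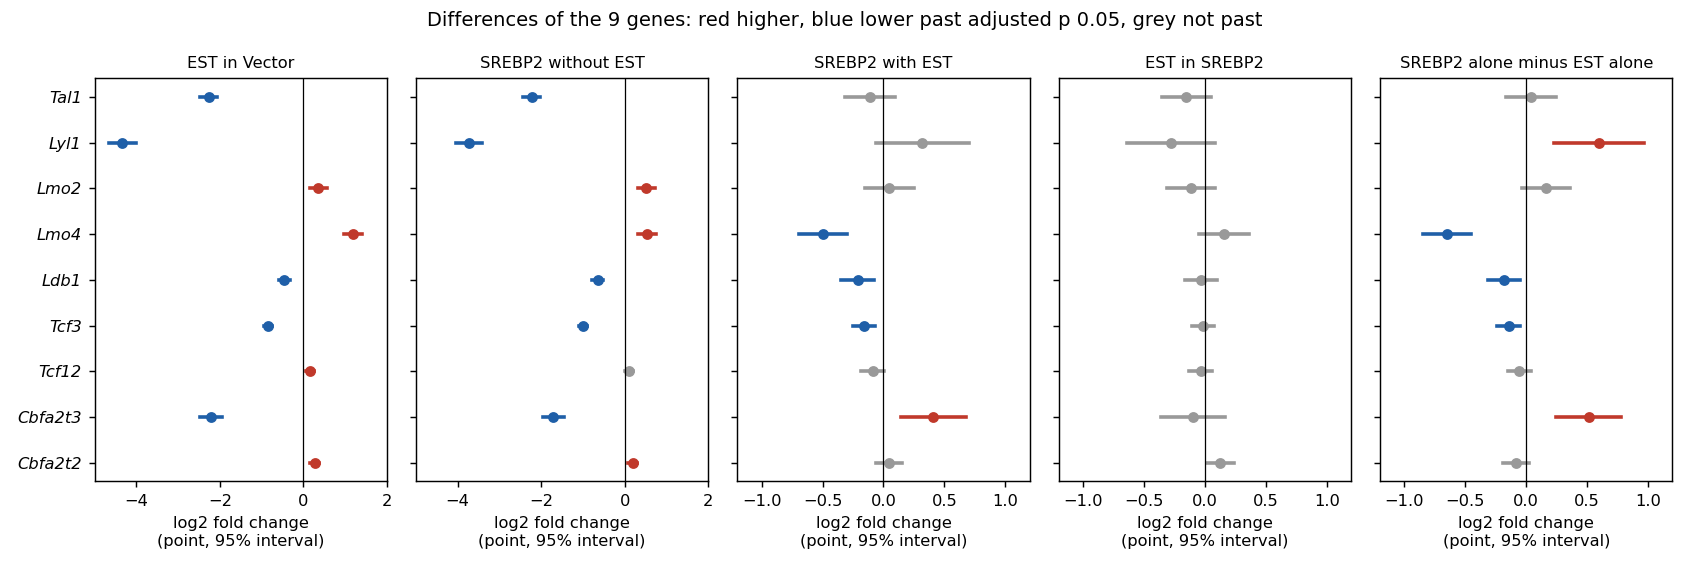
Log2 fold change of each gene with its 95% interval for 5 comparisons, with red for higher and blue for lower past an adjusted p of 0.05 and grey for not past it. The horizontal axes of the left 2 panels are wider, since Lyl1 reaches -4.33 with EST and -3.73 with SREBP2, while every value in the other 3 panels lies between -0.65 and 0.60.

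Putting SREBP2 and EST side by side as single treatments asks where they differed. The Vector libraries enter through the spread and scaling that all 12 libraries share in the fit. Lyl1 was 1.51-fold and Cbfa2t3 1.42-fold higher with SREBP2 alone than with EST alone, and Lmo4, Ldb1 and Tcf3 were lower. This made 2 of 9 higher, where 14.4% of all genes were, and 3 of 9 lower, where 8.96% were. The log2 differences were 0.60 ± 0.17 for Lyl1 and 0.51 ± 0.13 for Cbfa2t3 (edgeR adjusted p = 0.0206 and 0.00769), and -0.65 ± 0.09 for Lmo4, -0.18 ± 0.06 for Ldb1 and -0.15 ± 0.04 for Tcf3 (edgeR adjusted p = 7.41e-05, 0.0477 and 0.0235). Lmo4 showed the clearest separation, with 31.1 to 41.3 CPM against 54.7 to 57.4 CPM, and all 3 SREBP2 libraries lay below all 3 Vector+EST libraries for 16.2% of all genes. For Tal1 the difference was 0.04 with a 95% interval from -0.16 to 0.24.

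Several of these differences rested on single libraries or on the fit. Lyl1 was no longer called without SREBP2 library 3 or 5 (adjusted p = 0.105 in each) or Vector+EST library 3 (adjusted p = 0.104), nor by DESeq2 (adjusted p = 0.0513), in the fit of only the libraries compared (adjusted p = 0.0583) or with the header number as a block (adjusted p = 0.0718). Cbfa2t3 was lost without SREBP2 library 3 (adjusted p = 0.0502), and Tcf3 in 4 of the 12 fits that leave out a library (without SREBP2 library 1 or 3 and without Vector+EST library 1 or 5), with an adjusted p of at most 0.0822, and with the block (adjusted p = 0.0725). The Ldb1 difference passed in 4 of those 12 fits, was lost without each of the 3 Vector libraries, the 3 Vector+EST libraries, SREBP2 library 1 and SREBP2+EST library 5, and reached -0.13 (adjusted p = 0.197) without Vector+EST library 5, the one with fibroblast transcripts. It was also lost in the fit of only the libraries compared (adjusted p = 0.0842) and with the block (adjusted p = 0.0960). Lmo2 was called higher with SREBP2 without SREBP2 library 1 (0.30, adjusted p = 0.00121). Without library 1 of both SREBP2 groups 4 of 9 were higher (background 18.7%), with Tal1 at 0.17 (adjusted p = 0.00915) and Lmo2 at 0.29 (adjusted p = 4.66e-07) added, and 2 of 9 were lower (background 15.7%), since Ldb1 at -0.10 was no longer called (adjusted p = 0.0895).

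In cells that received EST, 4 of the 9 genes passed the test for SREBP2. Cbfa2t3 was higher and Lmo4, Ldb1 and Tcf3 were lower, which is 1 of 9 higher against 14% of all genes and 3 of 9 lower against 7.94%. Tal1, Lyl1, Lmo2, Tcf12 and Cbfa2t2 did not pass. Lmo4 differed by -0.49 ± 0.09 (log2, edgeR adjusted p = 0.00098), with 33.4 to 42.5 CPM against 54.7 to 57.4 CPM. The differences were 0.41 ± 0.13 for Cbfa2t3 (edgeR adjusted p = 0.0291), -0.21 ± 0.06 for Ldb1 (edgeR adjusted p = 0.0231) and -0.16 ± 0.04 for Tcf3 (edgeR adjusted p = 0.014). The libraries did not overlap for 6 of the 9 genes, with all SREBP2+EST libraries above all Vector+EST libraries for Lyl1, Cbfa2t3 and Cbfa2t2 (20.5% of all genes) and below them for Lmo4, Ldb1 and Tcf3 (17.5%). The 95% intervals were -0.32 to 0.09 for Tal1 and -0.06 to 0.70 for Lyl1.

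Lmo4 was called in every fit with a library left out, and the others were not. Cbfa2t3 was lost without Vector+EST library 1 (adjusted p = 0.0959) or 3 (adjusted p = 0.12), without SREBP2+EST library 1 (adjusted p = 0.123) or 5 (adjusted p = 0.07) and by DESeq2 (adjusted p = 0.0764). Ldb1 was lost without Vector+EST library 5 (adjusted p = 0.098) or SREBP2+EST library 2 (adjusted p = 0.0858), and Tcf3 without SREBP2+EST library 2 (adjusted p = 0.0613), and both with the header number as a block (adjusted p = 0.207 for Ldb1 and 0.166 for Tcf3). Lyl1 was called without SREBP2 library 1 (0.32, adjusted p = 0.0167) and Tcf12 without Vector+EST library 5 (-0.14, adjusted p = 0.0396) and with library totals only (-0.13, adjusted p = 0.0441). Without library 1 of both SREBP2 groups, 1 of 9 was higher (background 16.8%) and 4 of 9 were lower (background 14%), with Tal1 at -0.21 added (adjusted p = 0.00281).

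For EST given to SREBP2 cells none of the 9 genes passed the test, and edgeR called 0% of all genes tested, while 4.53% had an unadjusted p under 0.05. DESeq2 called 6 of 17167 genes and none of the 9, and edgeR called 22 genes without the low-count filter, 8 in a fit of the libraries compared alone and 18 without Vector+EST library 5. The adjusted p of the 9 ran from 0.919 to 0.971, and Cbfa2t2, with a difference of 0.13 (95% interval 0.02 to 0.24), had the lowest unadjusted p, 0.0251. The interval was -0.36 to 0.05 for Tal1, -0.64 to 0.08 for Lyl1 and -0.36 to 0.16 for Cbfa2t3, so that falls of the size seen in Vector cells lay outside these intervals.

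The values differed without the 2 libraries that lay nearer the other SREBP2 group. With both left out, which leaves 2 libraries in each of these groups and favours their separation, since the libraries nearest the other group are gone, 2 of 9 genes were higher (background 6.18%) and 4 of 9 were lower (background 7.7%). The log2 differences of these 6 were 0.39 for Lmo4, 0.17 for Cbfa2t2, -0.61 for Lyl1, -0.38 for Cbfa2t3, -0.37 for Tal1 and -0.35 for Lmo2. No single library left out brought any of the 9 past the threshold.

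The difference between the EST response of SREBP2 cells and that of Vector cells, tested as an interaction, was called for 8 of 9 genes, where 59% of all genes were called. It was above 0 for 5 of 9 (29.8% of all genes) and below 0 for 3 of 9 (29.2%), in each case opposite in sign to the EST response of Vector cells. That response is subtracted in the interaction and comes from the same libraries, so the opposite sign is no separate result. It was 4.05 ± 0.23 for Lyl1, 2.12 ± 0.17 for Cbfa2t3 and 2.11 ± 0.13 for Tal1 (log2 ± SE, edgeR adjusted p = 4.75e-10, 3.87e-08 and 1.73e-09). Cbfa2t2 alone was not called (-0.15, edgeR adjusted p = 0.0978). Without both library 1s of the SREBP2 groups the interaction was 3.75 for Lyl1, 1.88 for Cbfa2t3 and 1.93 for Tal1, and Tcf12 was not called (-0.14, adjusted p = 0.0555).

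The balance between relatives within each library does not depend on library scaling. The log2 ratio of Lyl1 to Tal1 counts was -0.50 ± 0.05 in Vector (SD, n = 3), -2.05 ± 0.26 in SREBP2, -2.58 ± 0.20 in Vector+EST and -2.14 ± 0.07 in SREBP2+EST. The ratio of Cbfa2t2 to Cbfa2t3 was -3.40 ± 0.03, -1.48 ± 0.38, -0.91 ± 0.15 and -1.26 ± 0.24 in the same order, and that of Tcf12 to Tcf3 was -1.60 ± 0.06, -0.51 ± 0.10, -0.60 ± 0.11 and -0.52 ± 0.06. In each of these the Vector libraries were apart from all others. The Lmo4 to Lmo2 ratio behaved differently, at -3.42 ± 0.04 in Vector, -3.39 ± 0.47 in SREBP2, -2.58 ± 0.01 in Vector+EST and -3.13 ± 0.36 in SREBP2+EST, so that Vector+EST stood above the others.

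EST in Vector cells shifted the ratio by -2.07 for Lyl1 to Tal1, 0.83 for Lmo4 to Lmo2, 1.00 for Tcf12 to Tcf3 and 2.49 for Cbfa2t2 to Cbfa2t3, each without overlap of libraries. SREBP2 without EST shifted them by -1.55, 0.02, 1.09 and 1.92, with overlap for Lmo4 to Lmo2 only. For every shift without overlap the exact two-sided permutation p was 0.1, the smallest that 3 against 3 libraries allow, and 0.182 after adjustment over 20 comparisons. In SREBP2 cells the Lmo4 to Lmo2 ratio was -2.86 in library 1 and -3.60 and -3.73 in libraries 3 and 5, above and below the Vector libraries, and without library 1 the SREBP2 shift was -0.24 in place of 0.02.

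**Figure D3:**
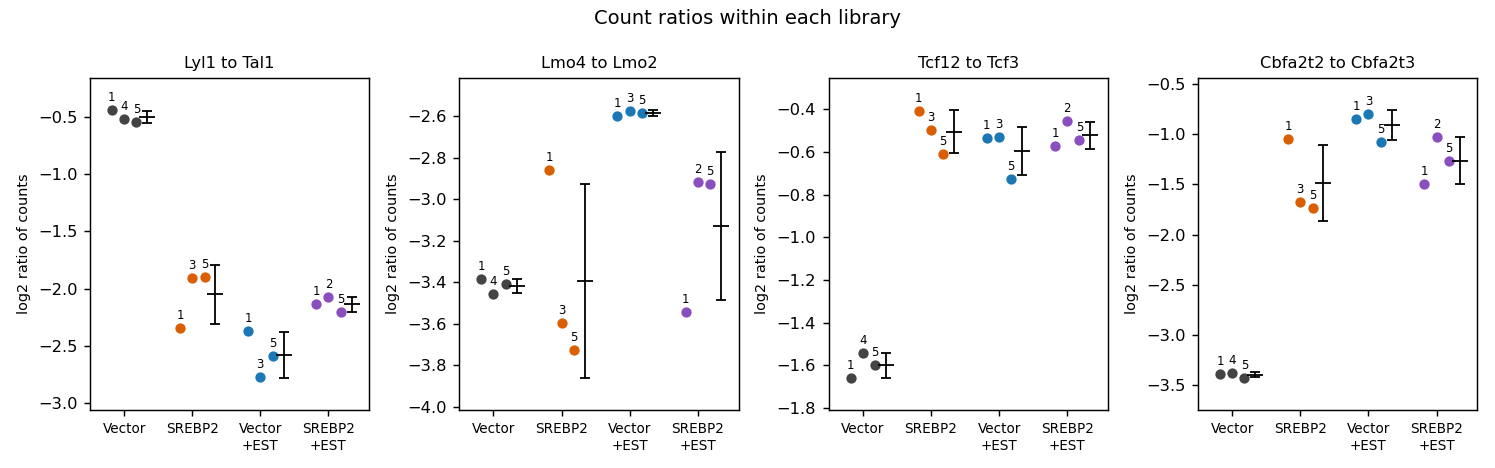
Log2 ratio of counts of 4 pairs of related genes within each library, with 1 point per library labelled with its header number and bars for the group mean ± SD (n = 3). The Vector libraries are apart from the other 9 for Lyl1 to Tal1, Tcf12 to Tcf3 and Cbfa2t2 to Cbfa2t3, and the Vector+EST libraries, at -2.58 ± 0.01, are highest for Lmo4 to Lmo2.

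The DNA before 1 RefSeq start site of each of the 5 falling genes is shown, because GATA factors and E-box binding proteins are the DNA-binding parts of the complex. RefSeq start sites on GRCm38.p6 gave 16 windows of 250 bases upstream for 8 of the 9 genes. Lyl1 and Tcf3 have 1 window each, and of the 2 windows of Tal1, the 2 of Cbfa2t3 and the 3 of Ldb1 the one that holds a GATA site is shown, so the choice used that site. By the gene spans given above, the Ldb1 and Tcf3 windows shown lie inside the gene. Most of the Cbfa2t3 window and the end of the Lyl1 window do so too. The other Ldb1 windows lie nearer the 5′ end of the gene and held no GATA site. On the strand of the gene, 5′ to 3′, capitals mark GATA sites (GATA with A or T before it and A or G after it, on either strand) and E-boxes (CANNTG).
Tal1, chr4:115056176-115056425, plus strand: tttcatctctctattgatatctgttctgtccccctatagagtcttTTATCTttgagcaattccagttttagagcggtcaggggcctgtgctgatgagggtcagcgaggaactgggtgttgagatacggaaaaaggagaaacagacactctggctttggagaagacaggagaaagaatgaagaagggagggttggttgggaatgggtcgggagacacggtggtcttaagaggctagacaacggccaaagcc
Lyl1, chr8:84701207-84701456, plus strand: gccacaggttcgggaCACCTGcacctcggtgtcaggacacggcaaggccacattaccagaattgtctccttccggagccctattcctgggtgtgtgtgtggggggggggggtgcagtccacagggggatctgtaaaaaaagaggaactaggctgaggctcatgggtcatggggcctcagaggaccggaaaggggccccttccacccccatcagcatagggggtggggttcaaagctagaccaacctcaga
Cbfa2t3, chr8:122699110-122699359, minus strand: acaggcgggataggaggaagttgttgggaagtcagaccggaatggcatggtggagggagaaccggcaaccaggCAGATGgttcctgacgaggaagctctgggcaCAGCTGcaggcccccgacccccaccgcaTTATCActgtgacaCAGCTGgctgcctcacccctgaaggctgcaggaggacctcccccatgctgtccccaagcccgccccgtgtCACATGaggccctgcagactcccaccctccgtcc
Ldb1, chr19:46037071-46037320, minus strand: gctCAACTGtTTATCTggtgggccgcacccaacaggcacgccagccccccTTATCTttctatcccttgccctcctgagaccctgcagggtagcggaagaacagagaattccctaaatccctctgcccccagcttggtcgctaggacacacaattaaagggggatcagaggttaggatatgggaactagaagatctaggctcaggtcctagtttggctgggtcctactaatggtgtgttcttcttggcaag
Tcf3, chr10:80433636-80433885, minus strand: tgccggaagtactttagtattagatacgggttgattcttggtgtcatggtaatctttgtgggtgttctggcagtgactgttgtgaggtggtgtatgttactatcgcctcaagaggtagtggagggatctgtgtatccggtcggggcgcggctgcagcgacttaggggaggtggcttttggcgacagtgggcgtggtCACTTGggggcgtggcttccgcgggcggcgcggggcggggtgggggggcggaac

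A GATA site of this kind occurred in 3 of the 16 windows, those shown for Tal1, Ldb1 and Cbfa2t3, and in 26.5% of all 32851 RefSeq windows of the same length. The Lyl1 window, at the gene with the largest fall, held no GATA site and an E-box 235 bases before the start site used. The Tcf3 window held no GATA site and an E-box 54 bases before its start site. An E-box occurred in 9 of the 16 windows and in 66.2% of all windows. The 9 include 2 overlapping windows of Lmo4 that hold the same site. The spaced pair of CTG and, after 8 or 9 further bases, GATA, searched on both strands and free to overlap the sites above, was found in the Tal1 and Cbfa2t3 windows shown and in 4.01% of all windows. The sterol element TCACNCCAC, known as a binding sequence of SREBP proteins, was in none of the 16 windows and in 1.05% of all windows, again on both strands. These are matches of letters and not measured binding.

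Other genes tied to the complex showed how wide these changes were. Transcripts of the GATA factors that LMO2 bridges to were lower in all 9 libraries outside the Vector group. Protein was not measured in these libraries. Gata1, whose reads include those of the introduced fusion, had 1786, 1752 and 1771 CPM in Vector, 511, 585 and 575 CPM in SREBP2, 467, 419.8 and 471 CPM in Vector+EST, and 577, 469 and 513 CPM in SREBP2+EST. Gata2 had 656, 624 and 653 CPM in Vector and 128 to 160.0 CPM elsewhere. With EST in Vector cells Gata1 fell by 1.97 ± 0.07 and Gata2 by 2.05 ± 0.05 (log2, edgeR adjusted p = 5e-13 and 3.43e-15), and with SREBP2 by 1.67 ± 0.07 and 2.30 ± 0.05 (edgeR adjusted p = 2.17e-12 and 7.92e-16).

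Of 8 transcription factor partners, 5 rose and 2 fell with EST in Vector cells, where 35.2% of all genes tested rose and 35.5% fell, and 6 rose and 2 fell with SREBP2, where 37.7% rose and 33.8% fell. These shares are the background of the lists that follow as well. Gfi1b, a repressor of the same precursors, rose by 1.36 with EST and 1.36 with SREBP2, Zfpm1, which encodes the GATA1 cofactor FOG1, rose by 1.06 with EST, and Erg, an ETS factor, rose by 1.98 with SREBP2 from 0.717 to 1.13 CPM in Vector (log2, edgeR adjusted p = 9.6e-13, 7.92e-13, 5.56e-13 and 5.29e-05). In cells given EST, SREBP2 raised 2 of the 8 (14% of all genes), Gata1 by 0.20 and Erg by 1.12, and lowered 1 (7.94%), Gata2 by 0.20 (edgeR adjusted p = 0.0429, 0.0144 and 0.00453).

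Among proteins that bind LDB1 or limit its turnover, 4 of 7 passed the filter, and Ssbp2 and Ssbp4, single-stranded DNA binding proteins known to stabilise LDB1, fell with EST by 1.01 and 0.83 and with SREBP2 by 1.04 and 1.07 (log2, edgeR adjusted p = 9.26e-11, 7.89e-10, 6e-11 and 3.6e-11). The other 2 tested did not pass in either comparison. Of 5 E protein relatives and inhibitors 2 passed the filter and both fell, Id1, an inhibitor of E protein binding, by 0.91 with EST and 0.92 with SREBP2, and the E protein gene Tcf4 by 0.27 and 0.44 (log2, edgeR adjusted p = 1.39e-08, 1.09e-08, 0.000381 and 3.54e-06). Tal2 and Runx1t1, the remaining relatives of Tal1 and Cbfa2t3, were not tested, with at most 0.584 and 0.323 CPM in any library.

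Of 8 corepressors described with the complex, 2 rose and 4 fell with EST (35.2% and 35.5% of all genes), and 2 rose and 5 fell with SREBP2 (37.7% and 33.8%). Kdm1a, the histone demethylase LSD1, rose by 0.75 and 0.70 and its partner Rcor1 by 0.48 and 0.53, while the corepressor scaffold Sin3a fell by 0.80 and 1.01 (log2, with EST and with SREBP2, edgeR adjusted p from 7.89e-11 to 7.41e-09). The histone deacetylase gene Hdac2 fell by 0.48 and 0.47 (log2, edgeR adjusted p = 2.7e-07 and 3.3e-07). Of 7 tested genes known as targets of the complex in erythroid cells, 1 rose and 5 fell with EST (35.2% and 35.5% of all genes), and 1 rose and 4 fell with SREBP2 (37.7% and 33.8%). Slc4a1, the band 3 anion exchanger, had 66.1 to 69.6 CPM in Vector and 2.46 to 5.15 CPM elsewhere, with log2 fold changes of -4.56 ± 0.11 and -4.06 ± 0.10 (edgeR adjusted p = 7.15e-15 and 8.19e-15). Epb42 fell by 2.87 and 2.77, and Alas2, the first enzyme of heme synthesis, rose by 1.4 and 1.76 (edgeR adjusted p from 3.37e-13 to 6.89e-12).

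**Figure D4:**
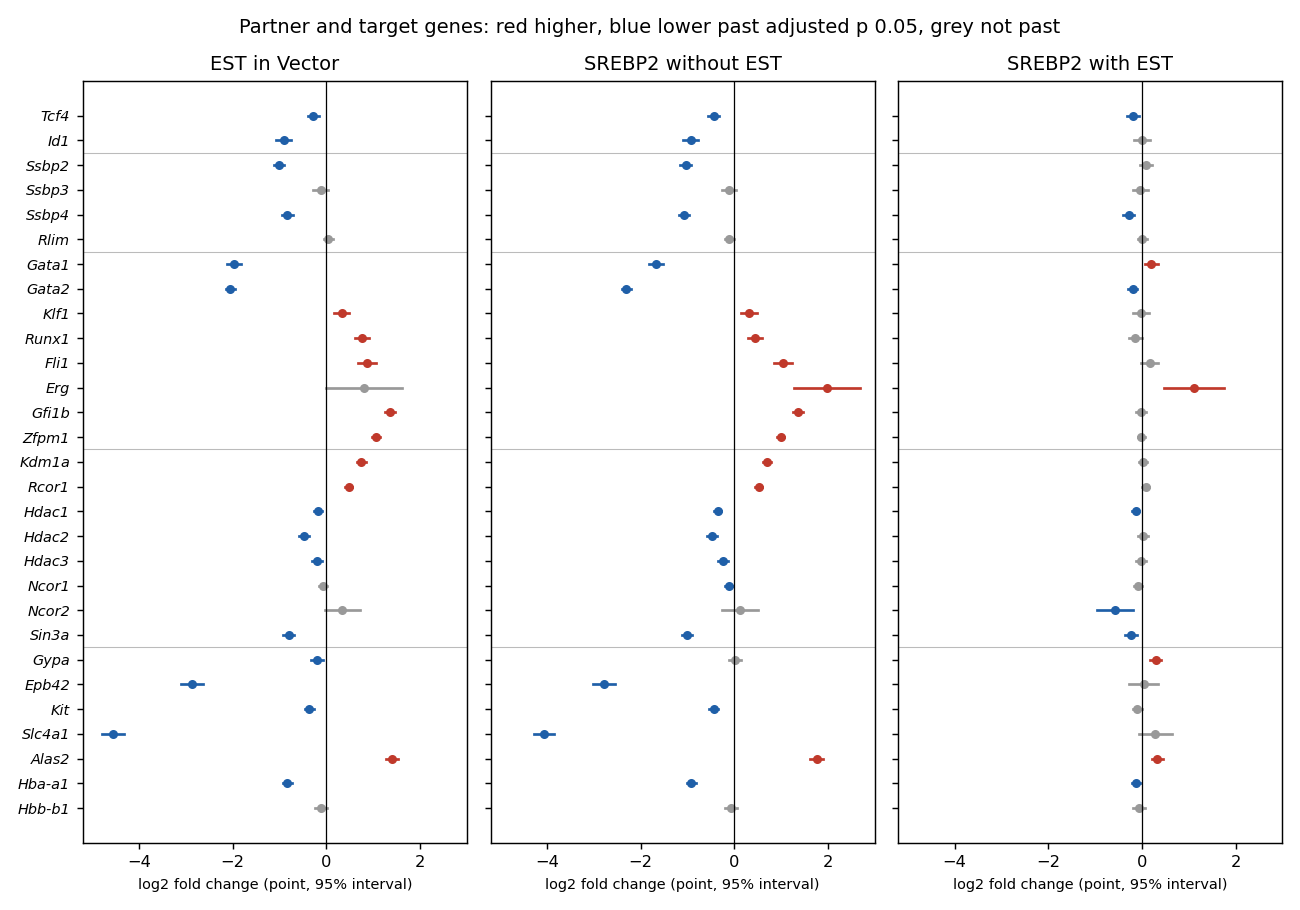
Log2 fold change with its 95% interval of 29 tested partner, corepressor and target genes for EST in Vector, SREBP2 without EST and SREBP2 with EST, with red for higher and blue for lower past an adjusted p of 0.05 and grey for not past it. Grey lines separate E protein relatives, LDB1 partners, transcription factors, corepressors and erythroid targets, with Slc4a1 lowest at -4.56 and Erg highest at 1.98.

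Several marker lists of other cell types moved with the Vector group too. The sum of 6 neural markers was 9.98 to 12.01 CPM in Vector and 2.02 to 4.82 CPM in the other libraries, that of 3 mast cell markers was 13.6 to 14.5 against 2.76 to 5.74 CPM, and that of 3 T cell markers 5.59 to 6.01 against 2.01 to 3.34 CPM. Macrophage markers summed to 3.94 to 4.59 CPM in Vector and 2.05 to 4.01 CPM elsewhere. The megakaryocyte markers summed to 38.3 to 42.8 CPM in Vector, 11.45 to 12.7 CPM in Vector+EST and 46.0 to 61.1 CPM in the SREBP2 groups, but the 3 markers went different ways. Pf4 rose from 8.91 to 10.06 CPM in Vector to 38.8 to 52.9 CPM in the SREBP2 groups, while Itga2b went from 26.3 to 29.4 CPM to 4.79 to 7.97 CPM and Gp9 from 2.14 to 3.33 CPM to 0.593 to 0.922 CPM. Single genes also made up most of the Vector sums of the other lists, namely Tubb3, Cpa3, Lck and Cd68. The part of these in the results above was not tested.

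Across the 12 libraries the log2 CPM profile most like that of Lyl1 was that of Eef2k (Pearson r = 0.997), followed by Col18a1 and Gata1 (r = 0.997 and 0.997), among 8494 genes compared. For Tal1 these were Rxrb, Dnmt3b and Ptpru (r = 0.999, 0.998 and 0.998), for Lmo2 Atp7b, Xpnpep1 and Tpm1 (r = 0.969, 0.966 and 0.965), and for Ldb1 Impa2, Cdk2ap1 and Spns2 (r = 0.992, 0.989 and 0.988). Within the complex Lyl1 tracked Tal1 and Cbfa2t3 (r = 0.991 and 0.988), and Lmo4 ran opposite to Cbfa2t3 (r = -0.912). The points share 12 libraries in which the Vector group stands apart, so these values describe the libraries and carry no test.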

How the data were processed

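RNA was measured in 12 libraries of 50-base single-end reads, 3 in each of 4 groups. The authors deposited estimated counts per gene, not normalized, and 66.5% of the values, zeros included, are whole exactly as written. Per the labels, the submitters' processing notes name HISAT2 2.0.4, Bowtie2 2.2.5, RSEM 1.2.12, DESeq2 1.4.5 and build GRCm38.p6. Reads shared by related genes may therefore have been divided by the estimate. A deposited table of the authors' own comparisons (fold changes and p-values per transcript) was not used. Groups came from the labels, and headers give each column's group but not its sample.

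After rounding to whole counts, filterByExpr kept 11177 genes and left out 6033, and edgeR's TMM factors scaled the libraries. Differences were tested by edgeR 4.0.16 (R 4.3.3) with its quasi-likelihood F-test on 4 group means from all 12 libraries, with Benjamini-Hochberg adjustment over all genes tested and a threshold of 0.05. The procedure was tested on simulated counts. Levels are TMM-scaled CPM, and likeness of profiles was taken on log2 CPM (prior count 2) over genes with a mean log2 CPM of at least 3. Ratios of related genes used raw counts with an offset of 0.5 and an exact two-sided permutation test. Between libraries of a group the chi-square per gene ran from 1.80 to 10.4, so no column was a copy of another. This does not tell whether the libraries came from separate cultures. Floors and intervals of counts cover counting error only, and totals of 18700959 to 19152281 give a floor of 0.153 to 0.163 CPM.

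Gene lengths are those of the coding transcripts in the reference annotation, and windows and positions are from RefSeq, both on GRCm38.p6. Alternatives were DESeq2 1.42.0, relative log expression factors, totals without factors, dropping the filter, a minimum of 10 counts per library, a fit of the compared libraries alone, leaving out every library in turn or both library 1s of the SREBP2 groups, and the header number as a block. All 9 genes were named with every value. From each partner list at most the 2 largest called rises and falls of a comparison could be named, with Gata1, Gata2 and Srebf2 and the 3 profiles most like Lyl1, Tal1, Lmo2 and Ldb1. The genes, lists and alternatives were chosen with earlier results of these data known.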

Additional observations from a re-analysis of the deposited data

Results flagged for a closer look

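The EST response differed between SREBP2 and Vector cells by a test of the difference itself (edgeR's interaction term, adjusted over all genes, n = 3 libraries in each of 4 groups) for 8 of the 9 genes, where 59% of all genes tested were called. On the log2 scale the response of SREBP2 cells exceeded that of Vector cells by 4.05 for Lyl1 (adjusted p = 4.75e-10), by 2.12 for Cbfa2t3 (adjusted p = 3.87e-08), by 2.11 for Tal1 (adjusted p = 1.73e-09), by 0.84 for Tcf3 (adjusted p = 9.49e-09) and by 0.43 for Ldb1 (adjusted p = 0.000563). These 5 genes fell with EST in Vector cells, and this fall is subtracted in the difference, so the sign of the difference is no separate result. All 5 were already lower in SREBP2 cells without EST than in Vector.

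The difference was -1.03 for Lmo4 (adjusted p = 7.86e-06), -0.47 for Lmo2 (adjusted p = 0.00646) and -0.19 for Tcf12 (adjusted p = 0.0183), the genes that rose with EST in Vector cells, with Cbfa2t2 as the fourth at -0.15 (adjusted p = 0.0978). The Tcf12 value was lost without Vector library 4 (adjusted p = 0.0789) or 5 (adjusted p = 0.0947), Vector+EST library 1 (adjusted p = 0.0587) or SREBP2+EST library 5 (adjusted p = 0.0755) and with the header number as a block (adjusted p = 0.101), and Cbfa2t2 passed without SREBP2 library 5 (-0.19, adjusted p = 0.0234). The other 7 were called in all 12 fits that leave out a library. In SREBP2 cells edgeR called 0 genes between the untreated and EST libraries, with 4.53% of genes at an unadjusted p under 0.05, while DESeq2 called 6, edgeR without the low-count filter 22, and edgeR without both library 1s, which each lay nearer the other group, 1567.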

How the results depend on the processing

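The direction and call of all 9 genes for EST in Vector, and of all but Cbfa2t2 and Tcf12 for SREBP2 without EST, held in DESeq2, the other scalings and filters, the fit of only the libraries compared and the block fit, apart from the fits named here. Over the fits that leave out a library, 3 to 4 genes were higher with EST in Vector and 2 to 4 with SREBP2 without EST, and 5 were lower in each. Of all genes tested, 3400 to 4023 were higher and 3764 to 4112 lower with EST in Vector. With SREBP2 without EST 3708 to 4256 were higher and 3580 to 3897 lower. With SREBP2 in EST cells 0 to 2 were higher and 1 to 3 lower, where 1263 to 1798 of all genes tested were higher and 510 to 1286 lower. For SREBP2 alone against EST alone 0 to 3 were higher and 1 to 3 lower, where 1294 to 1859 of all genes were higher and 591 to 1375 lower. The cause of these changes was not tested. DESeq2 called 0 higher with SREBP2 in EST cells and 1 higher for SREBP2 alone against EST alone, where it called 1328 and 1382 of 17167 genes higher. The fit of only the libraries compared also called 1 higher for SREBP2 alone against EST alone, where 1357 of 10814 genes were higher. Without both library 1s of the SREBP2 groups, EST in SREBP2 cells gave 2 higher (6.18% of all genes) and 4 lower (7.7%). SREBP2 alone against EST alone gave 4 higher (18.7%) without them. The fit of only the libraries compared was not possible for the interaction, which uses all 4 groups. Over all genes, which direction held more calls depended on the scaling. With SREBP2 in EST cells 1560 genes were higher and 888 lower with TMM factors, but 1292 and 1768 with library totals only. For SREBP2 alone against EST alone the counts were 1615 and 1002 with TMM factors, but 1365 and 1868 with library totals only.

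Values near 0 changed sign. With SREBP2 in EST cells Lmo2 ran from -0.051 to 0.095 over the fits with a library left out and was -0.052 without both library 1s, and Cbfa2t2 was -0.00070 with library totals only. For EST in SREBP2 cells the ranges were -0.11 to 0.012 for Ldb1, -0.053 to 0.010 for Tcf3 and -0.26 to 0.0086 for Cbfa2t3. For SREBP2 alone against EST alone Tal1 ran from -0.035 to 0.17 and was -0.0043 with library totals only. The Lmo4 to Lmo2 ratio with SREBP2 ran from -0.24 to 0.19 and the Tcf12 to Tcf3 ratio with EST in SREBP2 cells from -0.069 to 0.032.

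The header numbers did not pair the libraries. Of 13 same-numbered pairs across groups 0 had a correlation of their deviations over 0.1 (range -0.17 to 0.07), and 1 of 10 libraries was most like one of its own number. With the number as a replicate block, 1 gene was lower with SREBP2 in EST cells (Lmo4, with Ldb1 and Tcf3 lost), 1 was higher and 1 lower for SREBP2 alone against EST alone (Cbfa2t3 and Lmo4, with Lyl1, Ldb1 and Tcf3 lost), and 1 interaction was below 0, where Lmo2 stood at -0.38 (adjusted p = 0.11). For EST in SREBP2 cells the block gave 0.0067 for Ldb1, 0.0045 for Tcf3 and 0.0542 for Cbfa2t3. Of all 11177 genes tested, the block called 1005 higher and 203 lower with SREBP2 in EST cells (1560 and 888 without it), and 1289 higher and 513 lower for SREBP2 alone against EST alone (1615 and 1002 without it), and 2686 interactions were below 0 (3265 without it). Numbers 2 and 4 occur in 1 group each, so the block leaves out what those libraries say.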
